A study of Homo sapiens with 12 samples.

Results

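A stretch of 59 genes of human chromosome 12 was described across 12 RNA-seq libraries of a melanoma line. The genes run from CHD4 and ZNF384 on the short arm (12p) to ZCRB1 on the proximal long arm (12q). They were listed because genes of this stretch were lower together in the group named R1 than in control. All 59 symbols were found among the 12931 genes of the files. On GRCh38 with GENCODE v29 gene models they lie between chr12:6570082-42459715, a span of 35.9 Mb that holds 129 measured genes, of which 70 were not listed. A total of 54 listed genes lie on the short arm and 5 on the long arm (KIF21A, GXYLT1, YAF2, PPHLN1 and ZCRB1).

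WM1366 is an established cell line from a human skin melanoma with mutant NRAS. The series concerns resistance acquired under combined MEK and CDK4/6 inhibition and describes progressing xenograft tumours. The groups R1 (4 libraries) and R2 (4 libraries) carried a diet label of combined MEK and CDK4/6 inhibitors, and the control group (4 libraries) carried a control diet label. The sample labels also describe cells in culture medium, and for every library, control included, their treatment text names palbociclib (a CDK4/6 inhibitor) at 0.1 uM and PD0325901 (a MEK inhibitor) at 1 nM. What distinguishes the R1 group from R2 is not given in the labels, nor is it said whether replicates were separate tumours, so p-values measure the spread between these libraries, which may be technical. All groups come from 1 line, and xenograft tumours also hold host cells, whose reads the sources used here do not mention.

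Genes of 1 chromosome arm that are far apart usually answer to separate promoters, and have no shared role. Cancer cells often carry extra or missing chromosome arms, and the RNA level of many genes tends to follow the number of gene copies, although single genes may depart from it. DNA copy number was not analysed here. The listed genes code for proteins of many kinds, among them a Mediator subunit, Polycomb partners, glycolytic enzymes, a WNT co-receptor, a desmosome protein and the main mitochondrial fission GTPase.

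Several listed genes share a start region with a neighbour on the other strand, and 2 such regions are printed because RECQL and GOLT1B had the same sign in R1, while PHB2 and EMG1 did not. RefSeq windows (250 bases before to 50 bases after the gene start, GRCh38.p14) were found for 46 of the 59 listed genes. Capitals mark the motifs CCGGAAG (the core bound by ETS factors) and CCAAT (bound by NF-Y), read on either strand. The EMG1 window lies at chr12:6970663-6970962 (plus strand), and shares 252 bases with the PHB2 window at chr12:6970615-6970914 (minus strand). The GOLT1B window lies at chr12:21501539-21501838 (plus strand), and shares 253 bases with the RECQL window at chr12:21501586-21501885 (minus strand).
EMG1: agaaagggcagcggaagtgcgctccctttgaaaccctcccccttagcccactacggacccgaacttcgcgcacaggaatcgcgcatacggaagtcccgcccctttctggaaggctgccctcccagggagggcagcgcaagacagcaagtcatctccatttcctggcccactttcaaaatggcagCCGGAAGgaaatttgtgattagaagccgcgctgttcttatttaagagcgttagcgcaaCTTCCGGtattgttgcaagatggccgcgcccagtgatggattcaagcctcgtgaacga
GOLT1B: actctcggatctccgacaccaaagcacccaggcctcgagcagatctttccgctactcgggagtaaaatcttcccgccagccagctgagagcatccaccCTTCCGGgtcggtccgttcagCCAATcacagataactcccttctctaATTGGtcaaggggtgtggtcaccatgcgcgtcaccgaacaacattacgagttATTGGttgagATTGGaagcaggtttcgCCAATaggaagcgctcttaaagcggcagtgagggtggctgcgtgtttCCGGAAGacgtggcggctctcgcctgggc

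Across the 46 windows, CCGGAAG was found in 15 (32.6%), against 10.7% of 27305 RefSeq gene windows of the same length. The GC box core GGGCGG was found in 35 (76.1%), against 44.6% of all windows. CCAAT was found in 11 (23.9%), against 35.7% of all windows. TATAAA was found in 3 (6.52%, against 11.95%), the AP-1 core TGACTCA in 1 (2.17%, against 4.92%) and the E-box CACGTG in 2 (4.35%, against 7.43%). Both strands were searched, and no motif contains another. Windows were counted per gene, so a site shared by overlapping windows counts for each gene. This holds for CCGGAAG in the windows of PHB2 and EMG1, and for CCGGAAG and CCAAT in those of RECQL and GOLT1B. The median window of a listed gene held 26 CpG dinucleotides, against 14 over all windows. These are matches of letters and not measured binding. The windows of all genes include genes that the files do not hold, whereas the listed genes were all measured. Shares among measured genes were not counted, so these differences are not shown to be particular to the listed genes.

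Values are normalised read counts, which the authors scaled per library. Depth was 20003891 to 39009384 reads per library in the genes that the files hold, and 3 reads correspond to values of 0.0728 to 0.158. Log2 differences were taken on the log2(value + 0.5) scale with limma, ± 1 SE, and a gene was called at a Benjamini-Hochberg adjusted p under 0.05 over all 12931 genes. Differences between R1 and control chose the genes, so they and the differences between R1 and R2 are given as a description with no test. R2 libraries were not used in that choice, so R2 against control was tested, although the control libraries are those of the choosing comparison.

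Of the 59 listed genes, 40 were lower in R1 than in control by the call rule, 2 were higher (BCAT1 and EMG1) and 17 were not called. Over all genes 21.4% were called lower in R1 and 22.4% higher. Nothing is read from these shares, here or for the role groups below, since the same comparison chose the list. The median log2 difference of the listed genes was -0.61 in R1, which corresponds to 0.657 times the control level. For 39 listed genes every R1 library was below every control library (19% of all genes), and for 2 every one was above (20.8% of all genes). In bulk RNA, fewer cells of a type and less RNA per cell cannot be told apart.

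In R2, 35 of the 59 listed genes fell against control, 1 rose (KIF21A) and 23 were not called. The fallen genes were 59.3% of the list, against 14.8% of all genes, and the risen gene 1.69%, against 13.6% of all genes. An unadjusted p under 0.05, in either direction, was found for 41 listed genes. The median log2 difference in R2 was -0.41, or 0.753 times control. Every R2 library was below every control library for 36 listed genes (16.8% of all genes) and above for 2 (18% of all genes). Between the inhibitor groups, 26 listed genes were lower in R1 than in R2 (22.8% of all genes), 7 were higher (24% of all genes) and 26 were not called, with a median log2 difference of -0.26. Every R1 library was below every R2 library for 23 (19.1% of all genes) and above for 4 (20.3% of all genes).

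The lower level was present in each library of both inhibitor groups. As the median log2 ratio of the 59 listed genes to the control mean, R1 replicates 1 to 4 had -0.59, -0.65, -0.74 and -0.55. R2 replicates 1 to 4 had -0.37, -0.40, -0.40 and -0.32, and control replicates 1 to 4 had -0.00043, -0.0054, -0.02 and 0.04. The 3 groups did not overlap in this median, and R1 was lowest in all 4 libraries. The genes were listed for being lower in R1, and the ratios are to the control mean. The places of R1 and control were therefore partly set in advance. That of R2 may be too, since its ratios are to the same control mean. Among the 54 short-arm members the medians ran from -0.81 to -0.62 in R1, from -0.44 to -0.36 in R2 and from -0.02 to 0.04 in control. The 507 measured genes of 12q beyond the stretch had medians of 0.06 to 0.20 in R1, -0.32 to -0.24 in R2 and -0.03 to 0.03 in control.

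**Figure D1:**
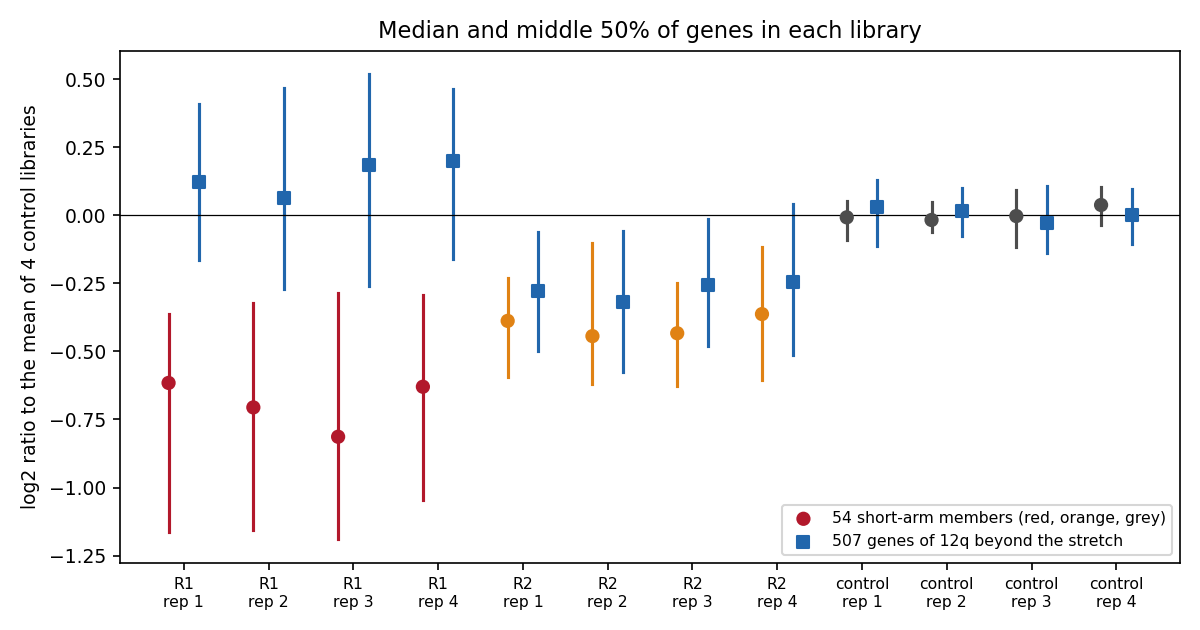
The vertical axis gives the log2 ratio of a gene to the mean of the 4 control libraries, and the horizontal axis the 12 libraries. Points are medians (circles, 54 short-arm members; squares, 507 genes of 12q beyond the stretch) and bars span the middle 50% of genes. In R1 only the short-arm members lie below 0, while in R2 both sets do.

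Position on the chromosome separated the listed genes in R1. The 54 short-arm members had a median log2 difference of -0.65 in R1, with 40 lower and 2 higher, while the 5 long-arm members had a median of 0.21 with 0 lower and 0 higher. The last measured short-arm gene ends at 34029694 and the first measured long-arm gene starts at 38316578, and the centromere lies between them. The listed stretch did not hold the whole of the lower region. The 39 measured genes distal to it on 12p had a median of -0.39 in R1, with 20 lower and 3 higher. The 70 unlisted genes within the stretch had a median of -0.58, with 38 lower and 4 higher. All 158 measured 12p genes together had a median of -0.58 in R1 (62.0% lower) and all 517 measured 12q genes a median of 0.14 (13.5% lower).

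In R2 the lower level was found on both arms, but not on the long arm next to the centromere. Median log2 differences in R2 were 0.09 from 35 to 40 Mb, 0.04 from 40 to 45 Mb and -0.27 from 45 to 50 Mb. The 158 measured 12p genes had a median log2 difference of -0.41 against control, with 82 fallen (51.9%) and 3 risen, and the 507 genes of 12q beyond the stretch had a median of -0.27, with 180 fallen (35.5%) and 15 risen. The 70 unlisted genes of the stretch had a median of -0.33 in R2, with 30 fallen (42.9%) and 3 risen. The 5 long-arm members had a median of 0.04 in R2, with 1 fallen (ZCRB1) and 1 risen (KIF21A). Genes placed on other chromosomes (11610) had medians of 0.01 in R1 and 0.04 in R2. By chromosome median, chromosome 12 ranked 2 from the lowest of 23 in R2 (-0.30) and 13 in R1 (0.02), and chromosome 15 was lowest in R2 (-0.76).

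**Figure D2:**
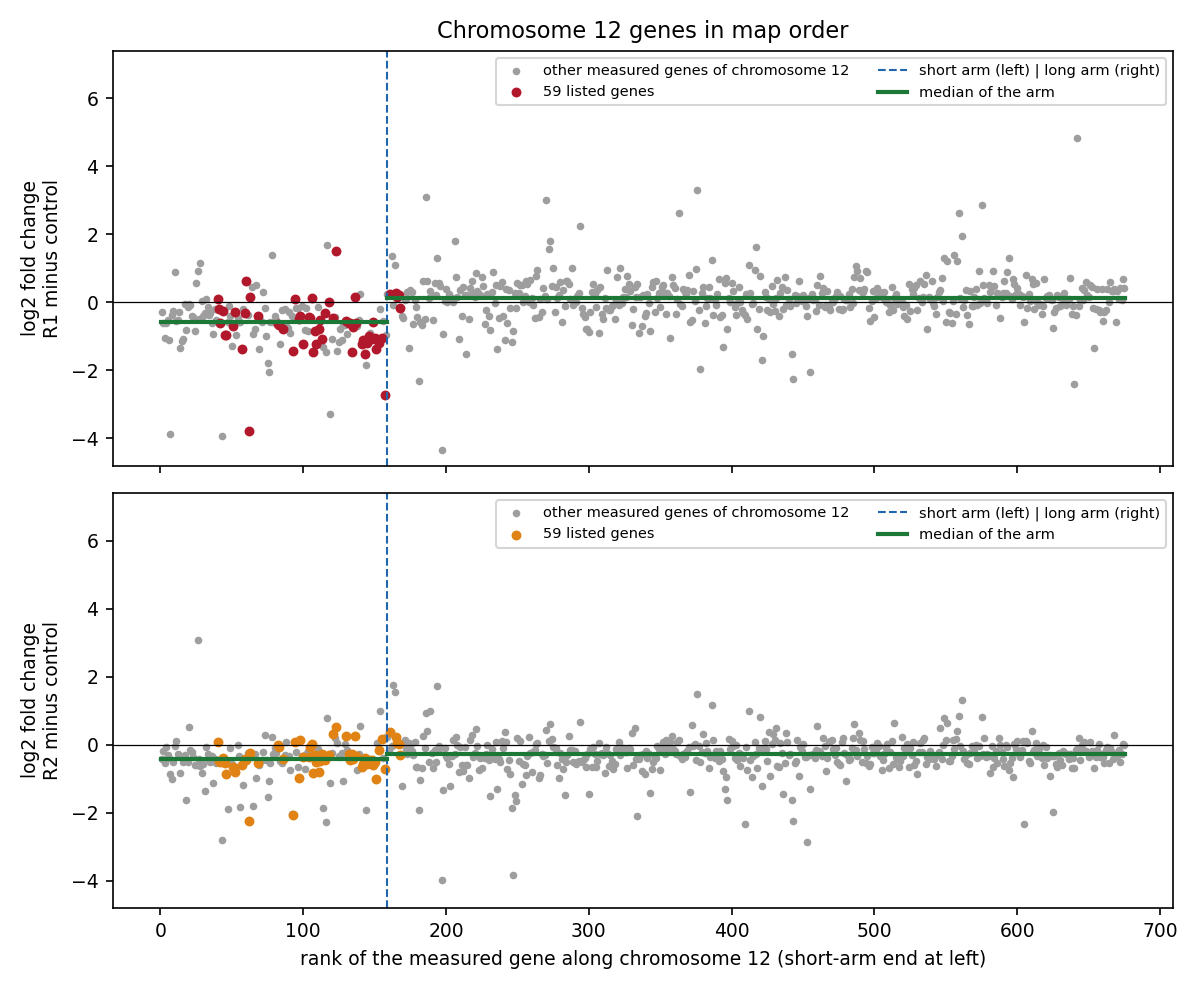
Each point is 1 of the 675 measured genes of chromosome 12, in map order on the horizontal axis, with its log2 fold change against control on the vertical axis (R1 above, R2 below). Coloured points are the 59 listed genes, green lines the median of each arm and the dashed line the gap between arms. The R1 arm medians are -0.58 and 0.14, and the R2 arm medians are -0.41 and -0.27.

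Along the short arm the R1 difference was uneven. In windows of 5 Mb from the short-arm end, the median log2 differences in R1 were -0.52, -0.41, -0.51, -0.85, -0.49, -0.74 and -1.04, the last for 14 genes next to the centromere. These windows gave -0.38, -0.52, -0.33, -0.30, -0.30, -0.33 and -0.45 in R2. The lowest R1 median was thus in the window next to the centromere, and the lowest R2 median in the window from 5 to 10 Mb. The next windows, with 4 and 12 genes of the long arm, had medians of 0.24 and 0.08 in R1 and of 0.09 and 0.04 in R2.

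The values at the edges of the list were as follows. Just inside the distal edge ZNF384 had a log2 difference of -0.62 in R1 and -0.52 in R2, and CHD4 had 0.09 in R1 and 0.07 in R2. Just outside it, NOP2 had -0.51 in R1 and -0.54 in R2, and IFFO1 had -0.19 in R1 and -0.43 in R2. At the proximal edge ZCRB1 had -0.17 in R1 and -0.31 in R2. Beyond ZCRB1, PRICKLE1 had -0.39 in R1 and -1.22 in R2, and PUS7L had -0.46 in R1 and 0.06 in R2.

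**Figure D3:**
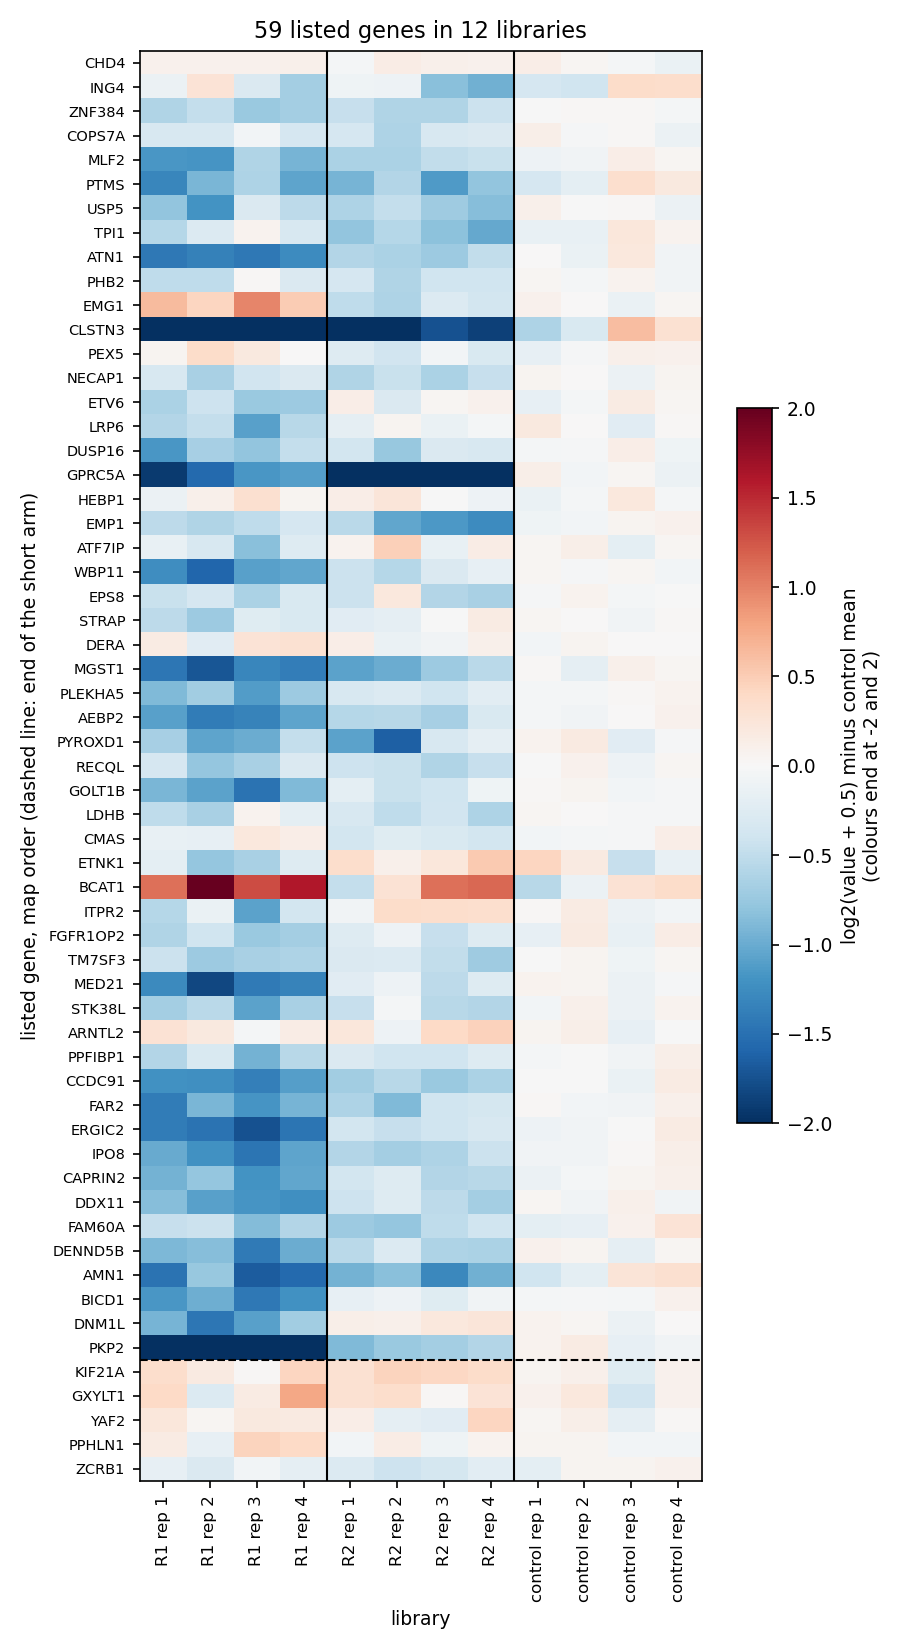
Rows are the 59 listed genes in map order and columns the 12 libraries, with colour giving log2(value + 0.5) minus the control mean, ending at -2 and 2. Most R1 cells are blue (lower) down to PKP2, with BCAT1 and EMG1 red (higher), and the blue stops at the dashed line, below which the 5 long-arm genes lie near or above 0.

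Receptors, adhesion and cell surface genes held the largest single differences of the list in R1, those of CLSTN3 and PKP2. All 7 genes of this role were lower in R1 (21.4% of all genes), and 6 of 7 fell in R2 (14.8% of all genes). The median of this role in R1 was -0.68. It was -1.04 for organelle and membrane traffic genes and -0.72 for signalling and protein turnover genes. CLSTN3 codes for calsyntenin 3, a cadherin-family membrane protein known from synapses. CLSTN3 had 3.42, 7.06, 2.13 and 2.26 in R1, 6.25, 10.01, 15.4 and 14.1 in R2, and 34.4, 42.5, 81.2 and 65.2 in control. The groups did not overlap with control, and R2 lay mostly between R1 and control. Mean levels were 3.72 ± 2.31 in R1, 11.4 ± 4.17 in R2 and 55.8 ± 21.4 in control (SD, n = 4 each). The log2 difference was -3.80 ± 0.36 in R1 and -2.23 ± 0.36 in R2 (limma adjusted p = 3.3e-04).

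PKP2, plakophilin 2, anchors intermediate filaments at desmosomes, and is the listed short-arm gene nearest the centromere (chr12:32790745-32896840, minus strand). Its values were 9.54, 10.004, 7.18 and 9.70 in R1, 33.9, 37.4, 38.9 and 41.6 in R2, and 65.6, 70.3, 55.96 and 59.5 in control. No group overlapped another, with R1 lowest and control highest. PKP2 averaged 9.10 ± 1.30 in R1, 37.96 ± 3.21 in R2 and 62.8 ± 6.37 in control, so that R1 stood at 0.145 times and R2 at 0.604 times the control mean. In log2 terms the difference was -2.73 ± 0.12 in R1 and -0.72 ± 0.12 in R2 (limma adjusted p = 5.9e-04).

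GPRC5A, an orphan receptor induced by retinoic acid, showed the reverse order of the inhibitor groups. Its libraries had 20.8, 26.7, 35.2 and 36.7 in R1, 18.1, 18.7, 18.4 and 19.7 in R2, and 86.6, 77.1, 81.96 and 73.8 in control. Both inhibitor groups lay below control in every library, and every R2 library was below every R1 library. Against control the log2 difference was -1.44 ± 0.15 in R1 and -2.06 ± 0.15 in R2 (limma adjusted p = 2.1e-07). EMP1, a tetraspan epithelial membrane protein, had 185, 176, 188 and 211 in R1, 184, 129, 121 and 112 in R2, and 252, 257, 277 and 285 in control. It was below control in every library of R1 and R2, with log2 differences of -0.49 ± 0.13 in R1 and -0.995 ± 0.13 in R2 (limma adjusted p = 8.1e-05).

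LRP6, a co-receptor for WNT ligands, had 57.6, 62.3, 40.7 and 59.2 in R1, 76.9, 89.9, 79.2 and 84.4 in R2, and 99.6, 87.5, 74.4 and 88.03 in control. Every R1 library was below every R2 and control library, while R2 overlapped control. The log2 difference was -0.68 ± 0.13 in R1 and -0.08 ± 0.13 in R2 (limma adjusted p = 0.71). TM7SF3, a multipass membrane protein, had log2 differences of -0.61 in R1 and -0.44 in R2, and PPFIBP1, liprin beta 1, had -0.60 in R1 and -0.34 in R2.

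Among signalling and protein turnover genes, 9 of 10 were lower in R1 and 6 of 10 fell in R2, where 21.4% and 14.8% of all genes did. DUSP16, a phosphatase of the JNK and p38 kinases, had 12.2, 17.6, 16.1 and 19.96 in R1, 21.7, 16.4, 22.8 and 22.4 in R2, and 27.5, 27.6, 30.9 and 26.5 in control. All inhibitor libraries lay below the 4 control libraries, and R1 and R2 overlapped. In log2 terms the difference was -0.77 ± 0.15 in R1 and -0.43 ± 0.15 in R2 (limma adjusted p = 0.042). The DUSP16 call in R2 was lost when any 1 R2 or control library was left out, with adjusted p-values of 0.0506 to 0.114, and on centring on the other chromosomes (adjusted p = 0.0528).

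AMN1 is named for its yeast counterpart, an antagonist of the mitotic exit network. AMN1 had 3.62, 6.27, 3.11 and 3.40 in R1, 5.47, 5.91, 4.18 and 5.42 in R2, and 8.26, 9.58, 13.2 and 13.9 in control. Both inhibitor groups were below control and overlapped each other, with log2 differences of -1.37 ± 0.21 in R1 and -1.01 ± 0.21 in R2 (limma adjusted p = 0.0028). ITPR2, an IP3-gated calcium channel of the endoplasmic reticulum, had 12.9, 17.6, 8.96 and 14.9 in R1, 18.5, 25.3, 24.9 and 24.6 in R2, and 19.7, 21.7, 17.8 and 18.6 in control. R1 was below control in every library, R2 overlapped control, and every R1 library was below every R2 library. Its log2 difference was -0.54 ± 0.18 in R1 and 0.25 ± 0.18 in R2 (limma adjusted p = 0.32).

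The other genes of that group ran from -0.97 (MLF2) to -0.26 (COPS7A) on the log2 scale in R1. USP5, which takes apart unanchored ubiquitin chains, had -0.70 in R1 and -0.66 in R2. MLF2 had -0.55 in R2, and PLEKHA5, a pleckstrin homology protein, had -0.85 in R1 and -0.30 in R2. COPS7A, a subunit of the COP9 signalosome, was not called in R1 (-0.26) and fell in R2 (-0.39). The kinase gene STK38L had -0.74 in R1 and -0.41 in R2, EPS8, an actin regulator, had -0.43 in R1 and -0.36 in R2, and FGFR1OP2 had -0.60 in R1 and -0.27 in R2. Of these 3 none was called in R2, where STK38L had a limma adjusted p of 0.0501 and passed with DESeq2.

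Of transcription and chromatin genes, 7 of 13 were lower in R1, against 21.4% of all genes, and 5 of 13 fell in R2, against 14.8% of all genes. ATN1, atrophin 1, a transcriptional corepressor, had 296, 312, 297 and 334 in R1, 530.4, 517, 485 and 568 in R2, and 801, 726, 924 and 762 in control. No group overlapped another. Against control the log2 difference was -1.37 ± 0.10 in R1 and -0.61 ± 0.10 in R2 (limma adjusted p = 4.8e-04). MED21 is a subunit of Mediator, which links transcription factors to RNA polymerase II. MED21 had 15.6, 10.4, 14.01 and 14.8 in R1, 32.5, 35.6, 26.5 and 31.8 in R2, and 40.3, 39.9, 35.3 and 37.7 in control. R1 lay below both other groups, while R2 overlapped control, with log2 differences of -1.46 ± 0.13 in R1 and -0.28 ± 0.13 in R2 (limma adjusted p = 0.13).

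ZNF384, a zinc finger transcription factor, had 76.5, 83.3, 69.5 and 72.5 in R1, 84.4, 76.4, 76.2 and 86.2 in R2, and 116, 118, 118 and 113 in control. Both inhibitor groups were below control and overlapped each other, with log2 differences of -0.62 ± 0.09 in R1 and -0.52 ± 0.09 in R2 (limma adjusted p = 4.8e-04). PTMS, the small acidic nuclear protein parathymosin, had 109, 143, 176 and 129 in R1, 141, 179.8, 122 and 155 in R2, and 214, 234, 339.9 and 307 in control. PTMS was likewise below control in all inhibitor libraries, by -0.97 ± 0.17 in R1 and -0.86 ± 0.17 in R2 on the log2 scale (limma adjusted p = 0.0021). Its gene overlaps MLF2 by 1960 bases, and since the counting is not stated to use strand, reads of the overlap cannot be told apart.

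ETV6, an ETS-family repressor, had 16.3, 19.2, 15.03 and 15.2 in R1, 28.3, 20.9, 26.4 and 27.3 in R2, and 22.9, 24.9, 28.6 and 26.4 in control. R1 was below every R2 and control library, whereas R2 and control overlapped. The log2 difference was -0.63 ± 0.13 in R1 and -0.0042 ± 0.13 in R2 (limma adjusted p = 0.98), and the sign in R2 turned with the settings. CHD4, the remodelling ATPase of the NuRD complex, had 533, 532, 529 and 535 in R1, 488, 554, 535 and 529 in R2, and 548, 516, 488 and 455 in control. All 3 groups overlapped, with log2 differences of 0.09 ± 0.09 in R1 and 0.07 ± 0.09 in R2 (limma adjusted p = 0.61).

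ARNTL2, a circadian transcription factor, had 94.8, 88.5, 75.2 and 85.8 in R1, 90.8, 72.2, 102 and 106 in R2, and 80.4, 84.3, 68.8 and 76.6 in control. Its groups overlapped, and it was the only short-arm member of this role group besides CHD4 with a log2 difference above 0 in both inhibitor groups (0.15 in R1 and 0.25 in R2, limma adjusted p = 0.16). Without R2 replicate 2 the ARNTL2 rise in R2 was called (adjusted p = 0.0288). AEBP2, a cofactor of Polycomb complex PRC2, had log2 differences of -1.22 in R1 and -0.52 in R2, and FAM60A, of the SIN3 complex, had -0.58 in R1 and -0.60 in R2. ING4 (-0.21 in R1, -0.50 in R2) and ATF7IP (-0.39 in R1, 0.14 in R2), both chromatin regulators, were called in neither comparison.

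RNA and DNA processing genes gave 5 lower and 1 higher of 7 in R1 (21.4% and 22.4% of all genes), and 6 fallen of 7 in R2 (14.8% of all genes). WBP11, a splicing factor, had 161, 126, 180.2 and 186 in R1, 283, 256, 313 and 340.1 in R2, and 393, 378, 391 and 368 in control. No group overlapped another, with log2 differences of -1.24 ± 0.13 in R1 and -0.37 ± 0.13 in R2 (limma adjusted p = 0.043). The R2 call was lost on leaving out R1 replicate 1, R2 replicate 1, 2 or 3, or any 1 control library, with adjusted p-values of 0.0537 to 0.113. It was also lost with edgeR on the recovered reads (adjusted p = 0.0508) and on centring on the other chromosomes (adjusted p = 0.0567).

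EMG1, a methyltransferase of ribosomal RNA, had opposite signs in the inhibitor groups. EMG1 had 24.2, 21.02, 30.9 and 22.3 in R1, 10.8, 9.87, 12.8 and 11.9 in R2, and 16.5, 15.5, 14.1 and 15.9 in control. Every R1 library was above, and every R2 library below, every control library. In log2 terms the difference was 0.64 ± 0.13 in R1 and -0.44 ± 0.13 in R2 (limma adjusted p = 0.024). The R2 call was lost without R2 replicate 1 or 2 or without control replicate 1, 2 or 4, with adjusted p-values of 0.0522 to 0.0614. EMG1 overlaps the unlisted LPCAT3 gene by 21243 bases on the map, and LPCAT3 had -0.37 in R1 and -0.25 in R2.

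DDX11, a DNA helicase, had log2 differences of -1.08 in R1 and -0.47 in R2, and is uncertain since near-identical copies exist. CAPRIN2, an RNA-binding protein, had -0.99 in R1 and -0.44 in R2. RECQL, a DNA helicase, had -0.51 in R1 and -0.48 in R2. STRAP, a partner of the SMN complex, had -0.45 in R1 and -0.07 in R2, where it was not called.

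Metabolic enzymes gave 3 lower, 1 higher and 7 not called of 11 in R1, and 6 fallen of 11 in R2. Their share lower in R1 was 27.3%, beside 21.4% of all genes, and nothing is read from it since R1 chose the list. Their share fallen in R2 was 54.5%, against 14.8% of all genes. MGST1, a membrane-bound glutathione transferase, had 48.1, 39.8, 52.999 and 50.1 in R1, 62.05, 65.96, 79.2 and 90.5 in R2, and 134, 117, 141 and 136 in control. No group overlapped another, with log2 differences of -1.46 ± 0.13 in R1 and -0.83 ± 0.13 in R2 (limma adjusted p = 2.5e-04). TPI1, the glycolytic triose phosphate isomerase, had 1089, 1329.7, 1689 and 1290.0 in R1, 935, 1091, 910.0 and 798 in R2, and 1463, 1451, 1895 and 1688 in control. R2 was below every control library, and R1 overlapped control and R2. Against control the log2 difference was -0.28 ± 0.15 in R1 and -0.80 ± 0.15 in R2 (limma adjusted p = 0.0013).

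LDHB, the lactate dehydrogenase B subunit, had 972, 883, 1446 and 1208 in R1, 1106, 969, 1063 and 901 in R2, and 1423, 1381, 1357 and 1360.3 in control. R2 lay below control and R1 overlapped both, with log2 differences of -0.32 ± 0.14 in R1 and -0.45 ± 0.14 in R2 (limma adjusted p = 0.031). The LDHB call in R2 was lost without R2 replicate 2 or 4 or without any 1 control library, with adjusted p-values of 0.0586 to 0.0856. BCAT1, the cytosolic branched-chain amino acid transaminase, was the highest of the list in R1. BCAT1 had 22.3, 43.1, 25.5 and 31.6 in R1, 7.12, 12.5, 22.1 and 23.04 in R2, and 6.73, 9.27, 12.4 and 13.2 in control. Every R1 library was above every control library, while R2 overlapped both. Its log2 difference was 1.51 ± 0.33 in R1 and 0.52 ± 0.33 in R2 (limma adjusted p = 0.26), and without R2 replicate 1 the R2 rise was called (adjusted p = 0.0405).

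Of the remaining enzymes, FAR2, a fatty acyl-CoA reductase, had log2 differences of -1.10 in R1 and -0.56 in R2. PYROXD1, an oxidoreductase, had -0.80 in R1 and -0.80 in R2. CMAS, which activates sialic acid, had 0.0083 in R1 and fell in R2 (-0.32). ETNK1, ethanolamine kinase, had -0.47 in R1 and 0.30 in R2, HEBP1, a heme-binding protein, had 0.09 in R1 and 0.06 in R2, and DERA, deoxyribose phosphate aldolase, had 0.13 in R1 and 0.0075 in R2. These last 3 were called in neither comparison.

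Organelle and membrane traffic genes gave 9 lower of 11 in R1 (21.4% of all genes), and 6 fallen and 1 risen of 11 in R2 (14.8% and 13.6% of all genes). ERGIC2, a protein of the intermediate compartment between endoplasmic reticulum and Golgi (chr12:29337352-29381189, minus strand), had 35.2, 33.1, 27.6 and 33.7 in R1, 72.2, 67.8, 70.9 and 74.7 in R2, and 87.4, 89.02, 92.9 and 105 in control. No group overlapped another, and R1 stood at 0.346 times and R2 at 0.762 times the control mean. The log2 difference was -1.52 ± 0.10 in R1 and -0.39 ± 0.10 in R2 (limma adjusted p = 0.01). Its gene overlaps FAR2 by 3629 bases. CCDC91, a Golgi protein that binds GGA adaptors, had 18.8, 18.4, 16.7 and 20.1 in R1, 26.9, 29.8, 25.99 and 28.2 in R2, and 43.6, 43.6, 40.2 and 49.2 in control. Its groups did not overlap either, with log2 differences of -1.23 ± 0.10 in R1 and -0.66 ± 0.10 in R2 (limma adjusted p = 2.4e-04).

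DNM1L, the dynamin-related GTPase that divides mitochondria, had 68.3, 47.7, 61.5 and 80.8 in R1, 141, 139.7, 151 and 154 in R2, and 137, 135, 120.3 and 131 in control. R1 was below, and R2 above, every control library. In log2 terms the difference was -1.04 ± 0.13 in R1 and 0.16 ± 0.13 in R2, where it was not called (limma adjusted p = 0.38). Its gene overlaps the unlisted YARS2 by 18161 bases on the map, and YARS2 had -0.56 in R1 and -0.39 in R2. PHB2, prohibitin 2 of the inner mitochondrial membrane, had 339, 340.0, 492 and 396 in R1, 382, 318, 365 and 364 in R2, and 497, 469, 503 and 458 in control. R2 was below control while R1 overlapped control, with log2 differences of -0.31 ± 0.12 in R1 and -0.43 ± 0.12 in R2 (limma adjusted p = 0.016).

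The other genes with this role, by log2 difference, were BICD1, a dynein adaptor (-1.20 in R1, -0.15 in R2), and IPO8, an importin (-1.18 in R1, -0.58 in R2). GOLT1B, a Golgi transport protein, had -1.08 in R1 and -0.29 in R2. DENND5B, a Rab exchange factor, had -1.04 in R1 and -0.52 in R2, and NECAP1, of clathrin-mediated endocytosis, had -0.41 in R1 and -0.53 in R2. BICD1 and GOLT1B were not called in R2. PEX5, the import receptor of peroxisomes, was called in neither comparison with control (0.16 in R1, -0.25 in R2).

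**Figure D4:**
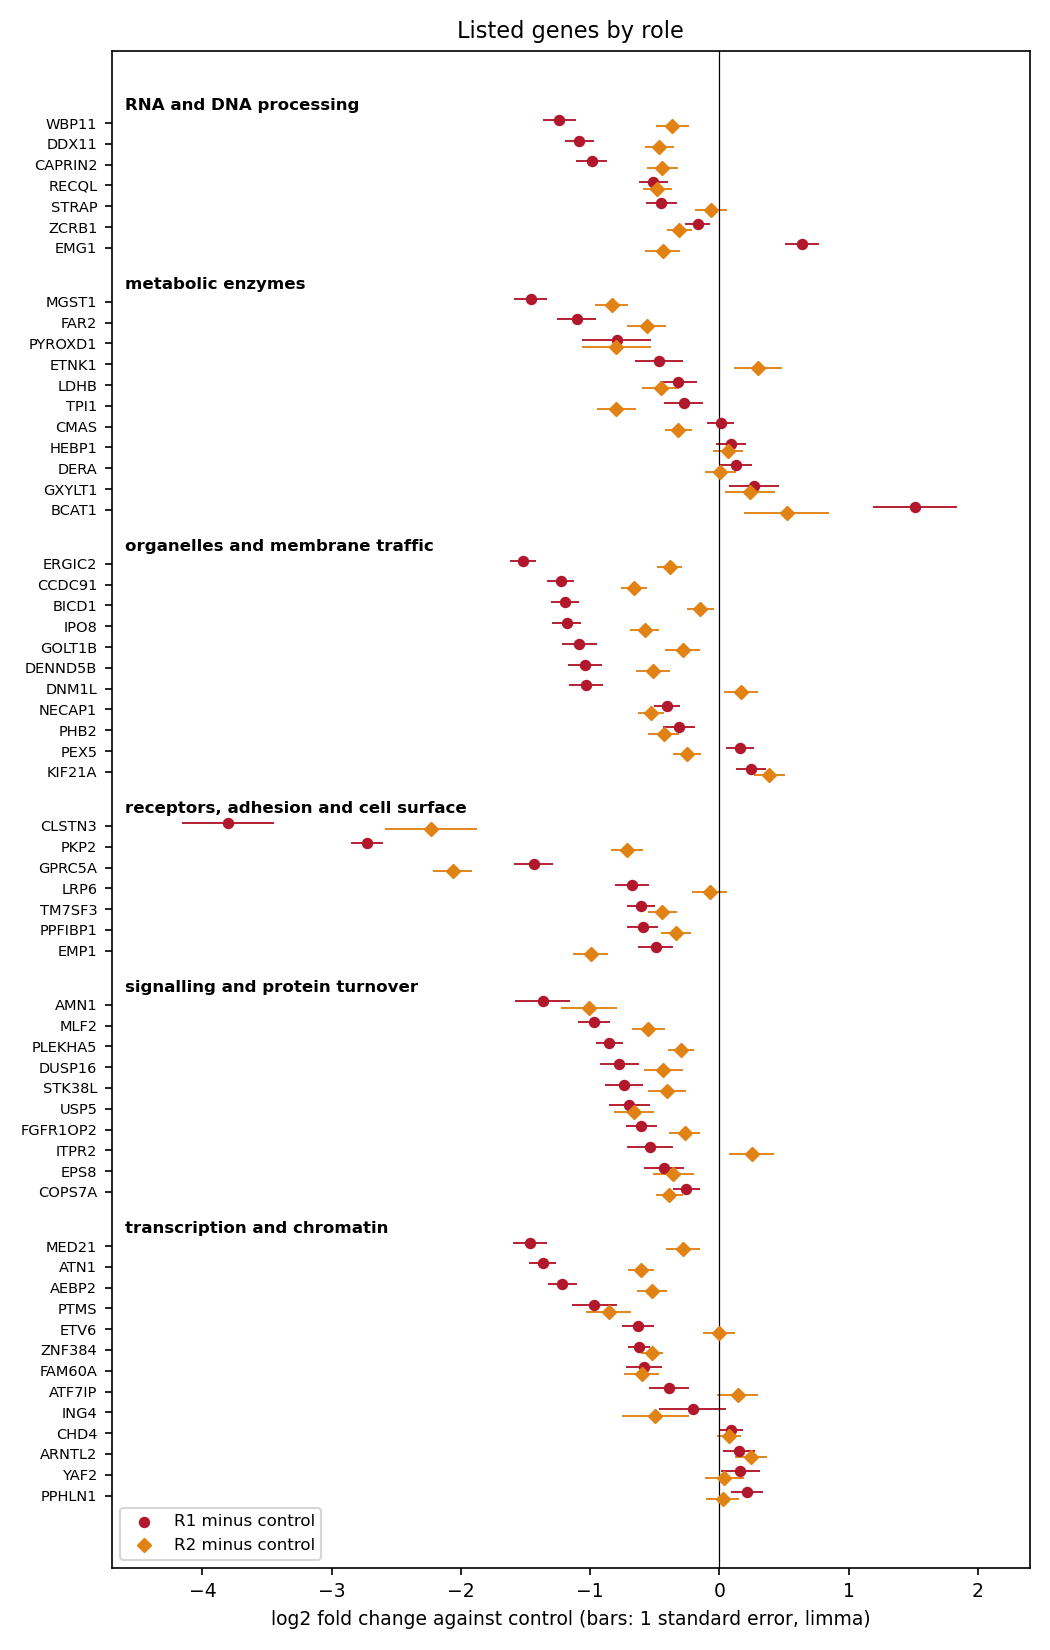
Each row is 1 listed gene, grouped by role, and the horizontal axis gives the log2 fold change against control with bars of 1 standard error. Circles are R1 minus control and diamonds R2 minus control. PKP2, ERGIC2, MED21, BICD1 and DNM1L are lower in R1 than in R2, while GPRC5A, EMP1 and TPI1 are lower in R2 than in R1.

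None of the 5 long-arm members was called in R1. KIF21A, a kinesin motor (chr12:39293228-39443390, minus strand), had 24.8, 21.8, 19.5 and 26.2 in R1, 23.9, 26.6, 25.8 and 25.1 in R2, and 19.997, 20.7, 16.3 and 20.5 in control. R2 was above every control library and R1 overlapped both, with log2 differences of 0.24 ± 0.12 in R1 and 0.39 ± 0.12 in R2 (limma adjusted p = 0.026). The KIF21A call in R2 was lost without R2 replicate 2 or 3 or control replicate 3, with adjusted p-values of 0.0541 to 0.0873. ZCRB1, an RNA-binding protein of the minor spliceosome, had 58.8, 53.5, 63.4 and 57.9 in R1, 54.02, 49.3, 51.4 and 56.6 in R2, and 57.2, 68.2, 68.5 and 69.5 in control. Its R2 libraries lay below control and R1 overlapped both, with log2 differences of -0.17 ± 0.10 in R1 and -0.31 ± 0.10 in R2 (limma adjusted p = 0.026). The ZCRB1 call in R2 was lost without R2 replicate 2 or 3 or control replicate 2, 3 or 4, with adjusted p-values of 0.0624 to 0.0756.

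GXYLT1, a xylosyltransferase that modifies Notch, had 26.3, 16.5, 22.4 and 34.5 in R1, 24.7, 25.4, 20.2 and 24.1 in R2, and 21.2, 23.1, 15.1 and 21.1 in control. YAF2, of Polycomb complex PRC1, had 9.76, 8.51, 9.49 and 9.36 in R1, 9.07, 7.22, 6.93 and 11.2 in R2, and 8.50, 8.96, 7.19 and 8.40 in control. The groups overlapped for both genes, with log2 differences for GXYLT1 of 0.27 ± 0.19 in R1 and 0.24 ± 0.19 in R2 (limma adjusted p = 0.39). For YAF2 they were 0.16 ± 0.15 in R1 and 0.04 ± 0.15 in R2 (limma adjusted p = 0.88), and the sign in R2 turned with the settings. PPHLN1, periphilin of the HUSH silencing complex, starts 98 bases from YAF2 on the other strand, and had 0.21 in R1 and 0.02 in R2. PPHLN1 overlaps ZCRB1 by 14041 bases on the map.

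**Figure D5:**
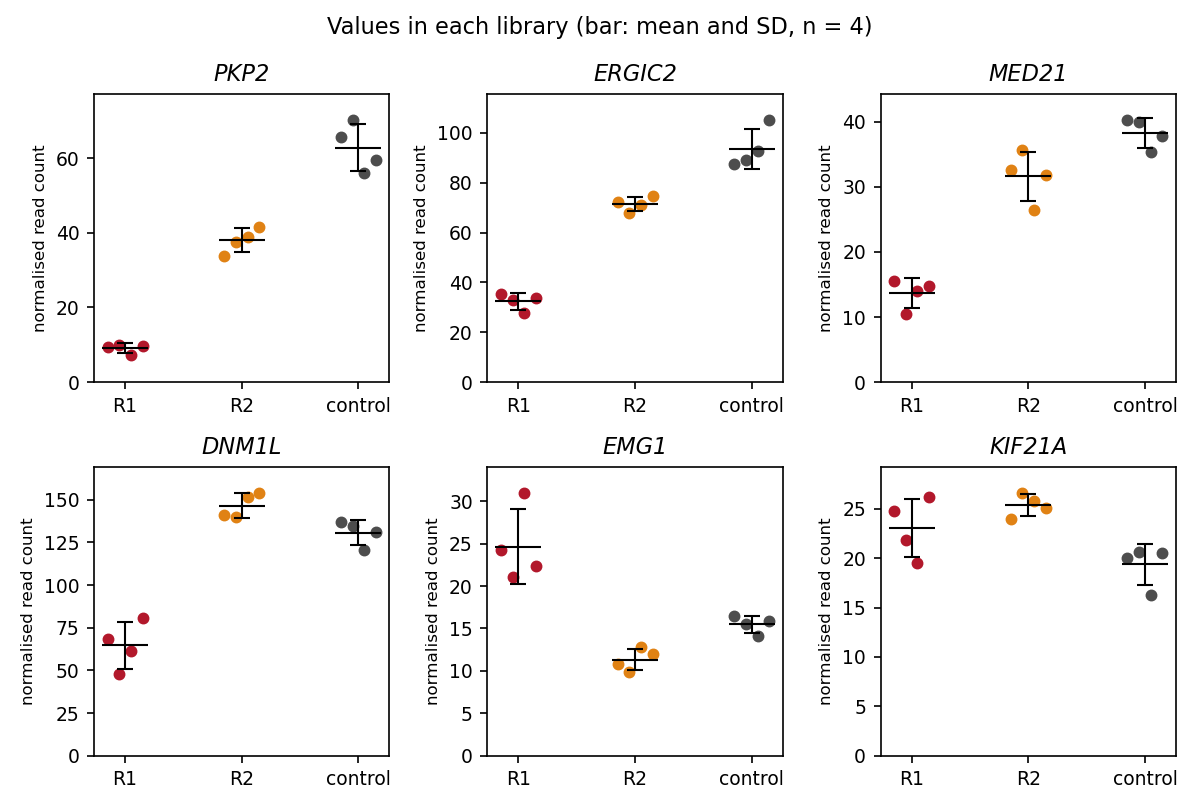
Normalised read counts (vertical axes, from 0) of 6 listed genes in each library of R1, R2 and control, with mean and SD (n = 4). PKP2, ERGIC2 and MED21 are lowest in R1, DNM1L is low in R1, EMG1 is high in R1 and low in R2, and KIF21A is highest in R2.

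PHB2 and EMG1 start 68 bases apart on opposite strands, in the window printed for EMG1, and differed in sign in R1 (-0.31 for PHB2, 0.64 for EMG1) but not in R2 (-0.43 for PHB2, -0.44 for EMG1). RECQL and GOLT1B, 112 bases apart in the window printed for GOLT1B, had -0.51 and -1.08 in R1, and -0.48 and -0.29 in R2. EPS8 and STRAP, 62 bases apart, had -0.43 and -0.45 in R1, and -0.36 and -0.07 in R2. No test was made between the genes of a pair.

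Among unlisted genes of the stretch with a control mean of at least 5, PIANP, ST8SIA1 and CLEC2B were lowest in R1. PIANP had 0.147 ± 0.0926 in R1, 0.950 ± 0.405 in R2 and 9.40 ± 1.55 in control. ST8SIA1, which makes ganglioside GD3, had 0.173 ± 0.161 in R1, 2.89 ± 1.97 in R2 and 5.97 ± 1.22 in control, and CLEC2B had 2.68 ± 0.872 in R1, 3.20 ± 0.406 in R2 and 10.5 ± 2.77 in control. Highest among these unlisted genes in R1 were CD163L1, CPNE8 and P3H3. CD163L1 had log2 differences of 0.46 in R1 and -0.37 in R2, CPNE8 had 0.23 in R1 and -0.15 in R2, and P3H3 had -0.10 in R1 and -0.49 in R2.

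Among other 12p genes, CDKN1B, which codes for the CDK inhibitor p27, had 17.5 ± 1.20 in R1, 23.4 ± 4.21 in R2 and 29.8 ± 2.87 in control, and was not called in R2 (log2 difference -0.36, limma adjusted p = 0.055). CDKN1B passed with DESeq2 (adjusted p = 0.044) and in limma without R2 replicate 2 (adjusted p = 0.021). FOXM1, a mitotic transcription factor, had 204 ± 64.7 in R1, 276 ± 35.9 in R2 and 493 ± 75.8 in control, and fell in R2 by 0.83 on the log2 scale (limma adjusted p = 0.012). For both genes the mean was lowest in R1 and highest in control. GAPDH, also on 12p, had log2 differences of -0.93 in R1 and -1.14 in R2.

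Of 40 measured paralogs of listed genes, 14 were lower and 11 higher in R1 (median log2 difference -0.0047), and 8 fell and 12 rose in R2 (median 0.11). That is 35% lower and 27.5% higher in R1, against 21.4% and 22.4% of all genes, and 20% fallen and 30% risen in R2, against 14.8% and 13.6%. Several paralogs lower in R1 lie on chromosome 11 (LDHA, DUSP8, EPS8L2, FAR1, IPO7, CAPRIN1 and DENND5A), and CHD3 lies on chromosome 17. ARNTL and PPFIBP2, also on chromosome 11, were not called in R1. Of measured genes, 26.2% of chromosome 11 and 28.3% of chromosome 17 were called lower in R1. Whole-chromosome values can hide an arm, as on chromosome 12 in R1 (median 0.02, against -0.58 on 12p). Shares by arm were not counted for chromosomes 11 and 17. The part of position was not tested. CHD3, the relative of CHD4 in NuRD, had -1.28 in R1 and -0.63 in R2, although CHD4 itself was called in neither. LDHA, the partner of LDHB in lactate dehydrogenase, had -0.97 in R1 and 0.12 in R2. DUSP8 had -2.95 in R1 and -0.95 in R2, in the same direction as DUSP16. KIF21B, the relative of KIF21A, had 24.9 ± 5.73 in R1, 0.275 ± 0.199 in R2 and 0.253 ± 0.0680 in control. PKP4, a relative of PKP2, had -0.49 in R1 and 0.35 in R2, and PKP3, another plakophilin, had -0.60 in R1 and -1.42 in R2.

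Partner genes of the listed proteins were counted in 11 lists, beside 21.4% lower and 22.4% higher of all genes in R1 and 14.8% lower and 13.6% higher in R2. In R1, Mediator had 8 lower and 5 higher of 29 (MED11 and MED28 at -1.22 and -0.98), NuRD 5 lower and 1 higher of 13, Polycomb 4 lower and 2 higher of 17, and glycolysis 5 lower and 1 higher of 15. The SIN3 complex had 3 lower and 1 higher of 13, peroxisome import 2 and 1 of 13, the COP9 signalosome 2 and 3 of 8, and HBO1 and ING genes 2 and 0 of 9. WNT receptors had 2 lower and 3 higher of 8, mitochondrial fission 0 and 1 of 5, and desmosome genes 2 and 0 of 4.

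In R2, Mediator had 6 fallen and 4 risen of 29, NuRD 3 and 0 of 13, Polycomb 2 and 5 of 17 and glycolysis 3 and 0 of 15. The SIN3 complex had 2 fallen and 0 risen of 13, peroxisome import 1 and 1 of 13, the COP9 signalosome 2 and 0 of 8, and HBO1 and ING genes 2 and 1 of 9. WNT receptors had 0 fallen and 1 risen of 8 (FZD3 at 1.77), mitochondrial fission 1 and 0 of 5 (MIEF2 at -0.90), and desmosome genes 2 and 1 of 4 (DSC2 at -0.80, PKP3 at -1.42 and PKP4 at 0.35). Some partners lie on chromosome 12 themselves, among them GAPDH and ENO2 on 12p and PFKM and KDM2B on 12q. MED11 and MIEF2 lie on chromosome 17, where 32.5% of measured genes fell in R2, and MED28 on chromosome 4, where 31.1% were lower in R1. These are shares of whole chromosomes, and shares by arm were not counted.

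Markers of other cell types also differed between the groups, and their part in the results was not tested. Of 8 endothelial markers 4 were measured, with a summed level of 375 to 499 in R1, 126 to 157 in R2 and 133 to 172 in control. Of 9 fibroblast and pericyte markers 4 were measured, at 84.7 to 154 in R1, 100.1 to 331 in R2 and 232 to 327 in control. CSF1R was the 1 measured of 9 leukocyte markers (1.39 to 6.19 in R1, 0.349 to 0.688 in R2 and 1.12 to 3.18 in control), KRT10 the 1 of 4 keratinocyte markers (23.0 to 34.7 in R1, 13.8 to 21.7 in R2 and 15.996 to 18.5 in control), and 0 of 3 red blood cell markers were measured. Of 9 melanocyte markers MITF and PMEL were measured, with a summed level of 42.5 to 64.8 in R1, 38.2 to 40.3 in R2 and 47.7 to 64.0 in control. In both R1 and R2, 1 of these 2 genes was called lower and 1 higher than in control, which the sum hides. Mitochondrial genome transcripts held 2.17 to 3.28% of the reads in R1, 4.02 to 9.63% in R2 and 5.86 to 10.9% in control.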

How the data were processed

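RNA was sequenced from 12 libraries of the WM1366 line (3 groups of 4), with TruSeq RNA Library Prep Kit v2 libraries from RNeasy-extracted RNA, per the labels. STAR, edgeR and GRCh38 are named in the submitters' processing notes, without versions; whether counting used strand is not given in the sources used here. The deposited files give 1 normalised signal value per gene, scaled per library by the authors. Each value divided by the step of its library gave a whole number of reads, within 0.01 (100% of values); depth was 20003891 to 39009384 reads per library. Groups and replicate numbers came from the sample titles.

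Values were compared as log2(value + 0.5) with limma 3.58.1 (R 4.3.3, empirical Bayes with a trend), all 12 libraries in 1 fit of 3 group means, two-sided, with Benjamini-Hochberg adjustment over 12931 genes and calls under 0.05. No further filter was applied: each of the 59 listed genes exceeded 1 CPM of recovered reads in at least 4 libraries. The added 0.5 understates changes of low genes. Count tests on the recovered reads (edgeR 4.0.16, DESeq2 1.42.0) were alternatives, edgeR calling 33 of the 35 listed genes that fell in R2. Other alternatives were pseudocounts of 0.1 and 1, a minimum mean of 5, TMM factors, centring on genes of other chromosomes, a replicate block, fits of 2 groups, and leaving out each library. TMM factors (the edgeR scaling between libraries) on the recovered reads repeated the reported calls over all genes. These were 2767 lower and 2900 higher in R1, and 1911 and 1756 in R2. The deposited values thus already carry such factors, and this setting was not a separate check. The fit was tested on simulated data. A gene that was not called is not shown to be unchanged. A total of 12285 genes were placed by GENCODE v29 or RefSeq (GRCh38.p14), and 646 were not.

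Deviations of same-numbered R1 and R2 libraries from their group means correlated at 0.12, 0.15, 0.12 and 0.21. Those of unlike-numbered R1 and R2 libraries ran from -0.16 to 0.15, so whether the numbers pair R1 with R2 is uncertain. The labels do not say it. Libraries were unpaired in the main fit, and a replicate block was an alternative. Numbers did not pair either group with control, although unlike-numbered R1 and control libraries correlated at -0.56 to 0.46. Control replicates 1 and 2 were close in read counts (chi-square per degree of freedom 19.5), as were 3 and 4 (13.5). Other pairs of control libraries had 53.9 to 94.3. The control libraries may therefore not be 4 independent samples, which the SDs and p-values take them to be. The cause was not tested. The members, roles, partner lists, markers and the rule for named genes were chosen with earlier results of these data known. Named in full were the 10 lowest and 4 highest listed genes in R1 with a control mean of at least 5, the ends of the stretch, up to 6 called in each direction in R2, and 13 fixed genes; other listed genes are given by their log2 differences, and CCND2 was not measured.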

Additional observations from a re-analysis of the deposited data

Results flagged for a closer look

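Among the 29 genes described library by library, in 3 groups each, 5 libraries stood apart from the other 3 of their group, where chance flags about 1 in 20 groups. PKP2 was 7.18 in R1 replicate 3, the lowest of its group, and AMN1 was 6.27 in R1 replicate 2, the highest. ITPR2 was 18.5 in R2 replicate 1, KIF21A was 16.3 in control replicate 3 and ZCRB1 was 57.2 in control replicate 1, each the lowest of its group.

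Of the 59 listed genes, 4 had every R1 library on one side of the control mean (log2 scale) and every R2 library on the other, and the difference was not tested because R1 chose the genes. EMG1 had log2 differences of 0.64 in R1 and -0.44 in R2. DNM1L had log2 differences of -1.04 in R1 and 0.16 in R2. PEX5 had 0.16 in R1 and -0.25 in R2, and ETNK1 had -0.47 in R1 and 0.30 in R2, neither called against control in either group.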

How the results depend on the processing

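Alternative counts were held the same within 1.5 times the reported total, and medians if they kept their sign and moved by less than the SD of the library medians. By these rules 210 alternative values were the same and 3 were not. The listed genes risen in R2 numbered 1 as reported, 2 without R2 replicate 1, 0 without R2 replicate 3 and 0 without control replicate 3. Totals hide a turn over all genes in R2, from 1911 lower and 1756 higher as reported to 1777 and 1922 with centring on the other chromosomes. The fit of 2 groups gave 2177 and 2231. Leaving out 1 library at a time gave 26 to 37 listed genes fallen in R2, 36 to 42 lower in R1, 24 to 29 lower in R1 than in R2 and 0 to 2 risen in R2. The medians ran from -0.42 to -0.38 in R2, -0.67 to -0.56 in R1 and -0.29 to -0.21 for R1 minus R2, and calls over all genes from 2795 to 4223 in R2, 4943 to 5877 in R1 and 5245 to 6171 for R1 minus R2. Listed genes fallen in R2 numbered 33 with edgeR, 36 with DESeq2 and 31 with centring on the other chromosomes, against 35 as reported. The TMM setting, counted among the alternatives, gave 35 again because the values already carry such factors. Of the listed genes not described library by library, the R2 falls of CMAS, PLEKHA5, PPFIBP1 and PYROXD1 were each lost without some single library, PYROXD1 also with edgeR, and PLEKHA5 and PPFIBP1 with centring. Calls were gained in R2 by STK38L (with DESeq2, a pseudocount of 1, a replicate block, the fit of 2 groups, and without R1 replicate 2 or 3 or R2 replicate 2), by GOLT1B (in the fit of 2 groups and without R1 replicate 3) and by EPS8 (without R2 replicate 2). The ETV6 difference in R2, -0.0042 as reported, turned to 0.0023 with edgeR and 0.0165 with centring, and ran from -0.0571 (without control replicate 1) to 0.0909 (without R2 replicate 2) on leaving out 1 library. It was also above 0 without control replicate 3 (0.0481) or 4 (0.00966). The YAF2 difference in R2, 0.04 as reported, ran from -0.0939 (without R2 replicate 4) to 0.126 (without R2 replicate 3), and was -0.0250 without control replicate 3. The LDHA difference in R2, 0.12 as reported, ran from -0.0286 (without control replicate 1) to 0.248 (without control replicate 3). The cause was not tested. With a replicate block, calls over all genes numbered 5798 in R1, against 5667 as reported, 3733 in R2, against 3667, and 6162 for R1 minus R2, against 6053. A replicate block in the R1 and R2 libraries alone, chosen after seeing the data, gave 5701, and the listed genes fallen in R2 numbered 36 with the block; no count moved by over 1.5 times. Genes near 3 reads are not resolved at this depth.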
